A study of Mus musculus with 6 samples.

Results

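The genes described here encode the chaperones, folding enzymes, degradation factors and stress sensors of the endoplasmic reticulum (ER), the compartment in which secreted and membrane proteins are folded. They are 34 genes chosen by symbol, all 34 of which were among the 26595 genes of the deposited table. Their transcript levels were compared between 3 libraries of HT22 cells exposed to IL-17 and 3 libraries of HT22 cells with no special treatment. HT22 is an immortalised line from mouse hippocampal neurons, labelled wild type in both groups, and IL-17 is a T-cell cytokine whose dose and duration are not given in the sources used here. The stated purpose of the study was to relate IL-17 to the JAK1-STAT6 pathway, and ER stress is not named in it. Nothing in the labels says that the cultures were separate, and the p-values then reflect library-to-library spread alone, which may be technical.

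Proteins that misfold in the ER are sensed by the membrane proteins encoded by Ern1, Eif2ak3 and Atf6. Ern1 encodes IRE1, which splices the mRNA of the transcription factor XBP1, Eif2ak3 encodes PERK, which slows translation, and ATF6 is itself cut to release a transcription factor. The resulting unfolded protein response raises transcription of chaperones such as Hspa5, which encodes BiP, and of the machinery that returns unfolded proteins to the cytosol for degradation. Many of its target promoters carry the ER stress response element, a CCAAT box spaced from a CCACG string that ATF6 and XBP1 recognise.

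The promoters of several of the genes hold this element, and those sequences are shown because they mark which genes carry the letters that ER stress factors recognise. RefSeq promoters on GRCm38.p6 were found for 29 of the 34 genes, and Atf6, Derl1, Hyou1, Manf and Sil1 were not matched. In the 250 bases before each gene start, on both strands, the full element (CCAAT, then 9 free bases, then CCACG) was found in 9 of these 29 genes (31.03%) and in 35 of 27025 genes with a promoter (0.1295%). Several of the 34 genes are known targets of the response, so this share describes the choice of genes. The related ERSE-II element (ATTGG, 1 free base, CCACG) was found in 1 of the 29 genes and in 10 of the 27025. The UPRE letters TGACGTGG were found in 0 of the 29 and in 163 of the 27025. The short string CCACG, which every match of the 2 elements contains, was found in 21 of the 29 genes (72.41%) and in 30.96% of all genes with a promoter. A match is a string of letters and not a measured binding site. Gene starts were those of RefSeq. For Dnajb9 the whole window lay inside the gene as GENCODE vM21 places it (chr12:44205559-44210326, minus strand).

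The 250 bases before the start of Hspa5 (GRCm38.p6 chr2:34771840-34772089, plus strand) are printed whole, with the element in capitals. GENCODE vM21 starts a transcript of Hspa5 within this window, at 34771970. The element lies downstream of that start, inside the gene as GENCODE places it.
Hspa5: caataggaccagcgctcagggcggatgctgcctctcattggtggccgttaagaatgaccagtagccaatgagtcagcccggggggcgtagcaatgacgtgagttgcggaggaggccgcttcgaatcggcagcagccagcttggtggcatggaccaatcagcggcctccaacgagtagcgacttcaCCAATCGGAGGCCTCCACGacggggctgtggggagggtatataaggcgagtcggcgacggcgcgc

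For the others, the element is shown in capitals with up to 20 bases on each side, read 5′ to 3′ along the gene, and Hsp90b1 has 2 copies. In Calr, Creld2, Derl3 and the copy of Hsp90b1 nearer the start, the element lies on the opposite strand and so reads CGTGG to ATTGG.
Calr (chr8:84847055-84847113, minus strand): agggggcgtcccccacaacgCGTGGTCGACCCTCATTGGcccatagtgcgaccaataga
Canx (chr11:50325780-50325838, minus strand): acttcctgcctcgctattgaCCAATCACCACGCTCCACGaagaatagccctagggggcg
Creld2 (chr15:88819500-88819558, plus strand): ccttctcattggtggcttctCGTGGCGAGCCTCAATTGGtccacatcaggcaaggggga
Derl3 (chr10:75893222-75893280, plus strand): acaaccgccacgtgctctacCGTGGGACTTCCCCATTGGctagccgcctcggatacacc
Dnajc3 (chr14:118937807-118937865, plus strand): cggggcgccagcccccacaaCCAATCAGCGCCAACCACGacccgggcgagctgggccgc
Hsp90b1, nearer the start (chr10:86705513-86705571, minus strand): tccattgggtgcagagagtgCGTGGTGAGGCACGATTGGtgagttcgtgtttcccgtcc
Hsp90b1, farther from the start (chr10:86705618-86705676, minus strand): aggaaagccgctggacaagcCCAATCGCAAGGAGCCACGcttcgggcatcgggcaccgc
Pdia6 (chr12:17266471-17266529, plus strand): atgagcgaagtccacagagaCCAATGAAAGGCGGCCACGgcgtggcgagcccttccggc
Syvn1 (chr19:6046512-6046570, plus strand): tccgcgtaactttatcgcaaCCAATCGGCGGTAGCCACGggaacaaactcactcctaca
Herpud1, ERSE-II (chr8:94386357-94386407, plus strand): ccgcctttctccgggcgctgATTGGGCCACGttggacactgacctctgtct

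Values are FPKM, read fragments scaled by transcript length and by the mapped total of the library, so levels can be compared between genes per length. They were analysed as log2(FPKM + 1), and fold changes below are on that scale, IL-17 over control. The sums of FPKM per library ran from 365534 to 383093. From the ratios of low values between libraries, the number of mapped fragments ran from 0.927 to 1.04 times that of IL-17 library 1, while the absolute depth is not known. Of 17 neuronal markers, 13 were in the table and 2 averaged at least 1 FPKM, Tubb3 and Ncam1 at 12.8 and 3.56 FPKM. Macrophage markers reached that level for 7 of 15 genes, led by Cd68 and Lyz2 at 253.3 and 79.1 FPKM. Plasma cell markers, of interest because such cells are rich in ER, did so for 3 of 8, led by Sdc1 at 49.9 and Ighm at 1.87 FPKM. The summed neuronal markers came to 18.3, 16.6 and 17.3 FPKM with IL-17, against 19.9, 21.2 and 20.3 FPKM in controls. The macrophage sums were 490.7, 469.4 and 484.1 FPKM with IL-17, against 461.6, 447.0 and 457.0 FPKM in controls. Neither pair of sums overlapped, the neuronal sum being lower and the macrophage sum higher with IL-17. Cd68, the largest part of the macrophage sum, stood at 284.5, 251.9 and 247.1 FPKM with IL-17, against 236.5, 253.5 and 246.2 FPKM in controls. Of the 7 macrophage markers at that level, Tmem119, Csf1r and Fcer1g had IL-17 wholly below control, and the others overlapped, Cd68 among them. The part of these markers in the ER gene levels was not tested. The plasma cell sums ran from 53.6 to 57.6 FPKM with IL-17 and from 51.8 to 54.9 FPKM in controls, and overlapped.

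As a group the ER genes were abundant, and none passed the test for a difference between IL-17 and control libraries. Most stood slightly lower with IL-17: 27 of the 33 tested genes had negative log2 fold changes, where 44.9% of the 12953 genes tested did. Their median log2 fold change was -0.08, against 0.02 for all genes tested. Derl3, at a mean of 0.367 FPKM, was below the filter of 0.5 FPKM and was not tested. With limma p-values adjusted by Benjamini-Hochberg across all 12953 genes, 0 of 33 were called higher and 0 lower, where 0.95% of all genes were called higher and 0.996% lower. The smallest adjusted p was 0.0657, for Ero1l. At an unadjusted p under 0.05, 13 were lower and 1 was higher, against 7.84% lower and 8.89% higher of all genes. The 13 fell to 7 without IL-17 library 2, to 7 without control library 3, to 8 with quantile normalization and to 7 with the replicate number as a block. Among genes averaging at least 50 FPKM, 9 of the 17 ER genes and 215 of the 1159 tested genes were lower at that unadjusted threshold. At that level 0 and 65 were higher. In bulk RNA, fewer cells that express a gene and less RNA per cell cannot be told apart.

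In 15 of the 33 genes every IL-17 value lay below every control value, and in 1 every IL-17 value lay above. Over all genes tested, 10.9% had IL-17 wholly below and 13.3% wholly above. A larger share of abundant genes than of all genes had IL-17 wholly below, so the count was also set against genes of similar level, at a split of 50 FPKM chosen after the values were seen. Of the 17 ER genes averaging at least 50 FPKM, 10 had IL-17 wholly below, against 26.1% of the 1159 tested genes at that level, and 0 had IL-17 wholly above, against 6.99%. Among the 16 below 50 FPKM, 5 had IL-17 wholly below and 1 wholly above, against 9.39% and 13.9% of tested genes at that level. These counts include the genes of the list that passed the filter, and no test of the list as a whole was made.

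Summed over the 34 genes, the FPKM came to 3933, 3904 and 3917 in IL-17 libraries and to 4316, 4282 and 4350 in control libraries. The groups did not overlap. As a share of each library, this was 1.05% ± 0.0218 with IL-17 and 1.16% ± 0.0322 in controls (SD, n = 3 each), a difference of -0.109 percentage points. Calr alone made up between 29.7% and 33.035% of the sum. Without Calr the sum was 2722 ± 34.7 FPKM with IL-17 and 2923 ± 48.4 FPKM in controls (SD, n = 3 each).

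**Figure D1:**
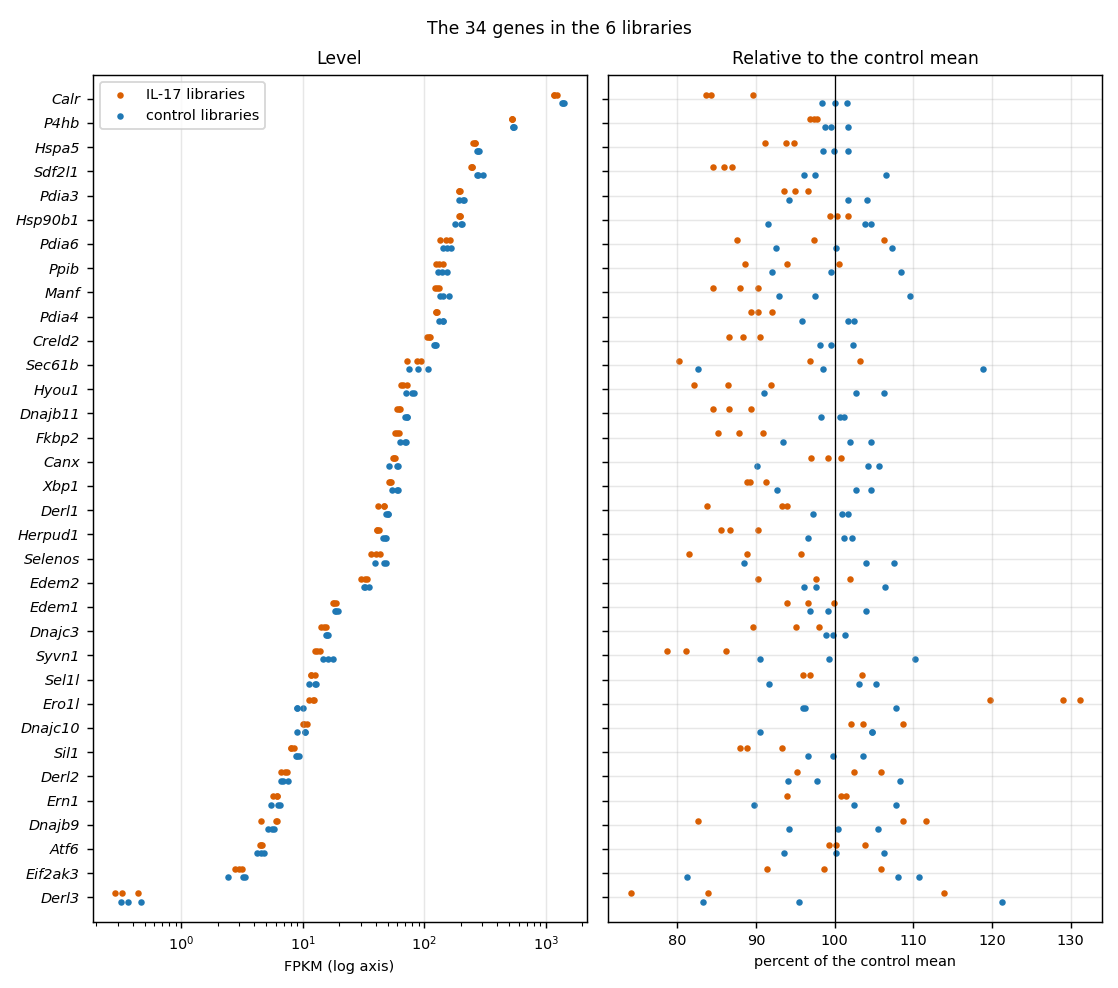
Level of each of the 34 genes in the 3 IL-17 libraries (orange) and 3 control libraries (blue), 1 point per library, as FPKM on a log axis (left) and as a percentage of the gene's control mean (right). Calr is the most abundant at a mean of 1294 FPKM and Derl3 the least at 0.367, and most orange points lie a little to the left of the blue ones, with Ero1l to the right.

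The Hsp70 chaperone and its helpers lay mostly below control. BiP binds unfolded chains in the ER lumen and is driven by J-domain proteins and nucleotide exchange factors. Hspa5 itself (gene at chr2:34771970-34777547, GRCm38) stood at 252.7, 260.0 and 262.7 FPKM in the IL-17 libraries, against 273.0, 276.8 and 281.7 FPKM in control libraries. The groups did not overlap, yet the difference was small, -0.10 as a log2 fold change (SE 0.04, limma adjusted p = 0.317, 95% interval -0.21 to 0.00).

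Dnajb11, a J-domain co-chaperone that hands unfolded chains to BiP, stood at 60.1, 63.6 and 61.6 FPKM with IL-17 and at 71.6, 69.9 and 72.0 FPKM in controls. All 3 IL-17 values were well below the lowest control value. The log2 fold change was -0.20 (SE 0.05, limma adjusted p = 0.0821), the second smallest adjusted p among the ER genes.

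Sdf2l1, which keeps BiP substrates from aggregating together with Dnajb11, stood at 247.6, 244.8 and 240.6 FPKM with IL-17 and at 303.2, 273.5 and 277.5 FPKM in controls. Again the groups were apart, by a log2 fold change of -0.22 (SE 0.05, limma adjusted p = 0.107). It was called with quantile normalization (adjusted p = 0.046) and with array weights (adjusted p = 0.033). Control library 1 was the highest of the 6.

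The nucleotide exchange factors of BiP were Hyou1, at 67.5 ± 3.85 FPKM with IL-17 and 77.8 ± 6.18 FPKM in controls, and Sil1, at 8.16 ± 0.255 FPKM with IL-17 and 9.06 ± 0.314 FPKM in controls (SD, n = 3 each). For Hyou1 the groups overlapped, because control library 1 at 70.8 FPKM was below IL-17 library 1 at 71.5 FPKM. Manf, a secreted factor that binds BiP, stood at 123.5, 128.4 and 131.7 FPKM with IL-17 and at 160.0, 135.6 and 142.4 FPKM in controls. Its log2 fold change was -0.19 (SE 0.07, limma adjusted p = 0.237).

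The other J-domain genes showed less difference. Dnajc3, which also restrains PERK, averaged 14.9 ± 0.666 FPKM with IL-17 and 15.8 ± 0.188 FPKM in controls, with the groups apart. Its log2 fold change was -0.08 (95% interval -0.20 to 0.04, limma adjusted p = 0.467). Dnajb9, an IRE1-dependent co-chaperone, averaged 5.56 ± 0.881 FPKM with IL-17 and 5.51 ± 0.313 FPKM in controls. Dnajc10, a disulfide reductase with a J domain, averaged 10.4 ± 0.346 FPKM with IL-17 and 9.92 ± 0.818 FPKM in controls. Both overlapped between groups, and the 95% interval of the log2 fold change was -0.24 to 0.25 for Dnajb9 and -0.10 to 0.22 for Dnajc10. In all, 6 of the 9 genes of the Hsp70 group had IL-17 wholly below control, where 10.9% of all genes and 26.1% of those averaging at least 50 FPKM did, with a median log2 fold change of -0.14.

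The lectin chaperones and the ER Hsp90 did not share a pattern. Calr encodes calreticulin, a soluble lectin and calcium store protein, and was the most abundant of the ER genes (gene at chr8:84841850-84846934). It stood at 1249, 1174 and 1165 FPKM in the IL-17 libraries, against 1371, 1415 and 1393 FPKM in control libraries. The IL-17 mean was 85.8% of the control mean, with the groups apart and a log2 difference of -0.22 (SE 0.05, limma adjusted p = 0.0936, 95% interval -0.34 to -0.10). Array weights made it pass (adjusted p = 0.0168).

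Canx, the membrane-bound lectin that shares substrates with calreticulin, stood at 56.7, 55.5 and 57.7 FPKM with IL-17 and at 51.6, 59.6 and 60.5 FPKM in controls. Hsp90b1, the ER Hsp90, stood at 197.7, 193.3 and 195.1 FPKM with IL-17 and at 178.1, 203.4 and 202.1 FPKM in controls. In both genes control library 1 was the lowest of the 6 and the other controls were the highest, so the groups overlapped. Their log2 fold changes were -0.01 (95% interval -0.17 to 0.15) and 0.01 (95% interval -0.14 to 0.15).

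Among the folding enzymes that act on disulfide bonds and proline, the protein disulfide isomerases lay at or slightly below control and the oxidase Ero1l lay above. P4hb, the most abundant of the isomerases, averaged 527.4 ± 2.64 FPKM with IL-17 and 541.9 ± 8.07 FPKM in controls. Pdia3, which works with the lectins, averaged 194.8 ± 3.14 FPKM with IL-17 and 205.0 ± 10.5 FPKM in controls (SD, n = 3 each). The other isomerases Pdia4 and Pdia6 averaged 125.9 ± 1.88 and 150.2 ± 14.5 FPKM with IL-17, against 139.1 ± 5.12 and 154.7 ± 11.5 FPKM in controls. Groups were apart for P4hb and Pdia4 and overlapped for Pdia3 and Pdia6.

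Ero1l, the oxidase that passes electrons from the isomerases to oxygen, went the other way (gene at chr14:45283087-45318771). Its values were 12.3, 11.2 and 12.1 FPKM in IL-17 libraries and 8.99, 9.001 and 10.1 FPKM in control libraries. It was the only tested ER gene of the list with IL-17 wholly above control, and the log2 fold change of 0.31 (SE 0.07, 95% interval 0.16 to 0.46) was the largest in size. With a limma adjusted p of 0.0657 it was not called, but it passed when the filter was raised to a mean of 2 FPKM, which left fewer genes to adjust over (adjusted p = 0.0474). Ero1l is also known as a hypoxia-responsive gene.

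Creld2, a secreted ER stress protein with isomerase activity, stood at 106.2, 111.1 and 108.4 FPKM with IL-17 and at 125.5, 122.1 and 120.4 FPKM in controls. Every control value exceeded every IL-17 value, and the log2 fold change was -0.17 (SE 0.05, limma adjusted p = 0.117). The prolyl isomerase genes Fkbp2 and Ppib averaged 59.7 ± 1.94 and 133.4 ± 8.47 FPKM with IL-17, against 67.9 ± 3.95 and 141.4 ± 11.5 FPKM in controls. Fkbp2 was apart between the groups and Ppib was not. Ppib shares 825 exon bases with Snx22 on the opposite strand, a gene averaging 1.62 FPKM.

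The stress sensors themselves were at low levels and close to control. Ern1 stood at 6.16, 6.12 and 5.70 FPKM in the IL-17 libraries, against 5.45, 6.55 and 6.23 FPKM in control libraries. Eif2ak3 stood at 2.96, 2.74 and 3.18 FPKM with IL-17 and at 2.44, 3.32 and 3.24 FPKM in controls, and Atf6 at 4.66, 4.49 and 4.45 FPKM with IL-17 and at 4.19, 4.77 and 4.49 FPKM in controls. The groups overlapped in all 3 genes. For Ern1, Eif2ak3 and Atf6 the 95% intervals of the log2 fold change were -0.19 to 0.16, -0.24 to 0.23 and -0.13 to 0.16, so differences within these bounds cannot be told from none. In each of the 3 genes control library 1 was the lowest of the 6.

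Xbp1, the transcription factor downstream of IRE1, stood at 53.0, 51.6 and 51.8 FPKM with IL-17 and at 59.7, 53.8 and 60.8 FPKM in controls. The groups did not overlap, though control library 2 was close above the highest IL-17 value, and the log2 fold change was -0.15 (SE 0.06, limma adjusted p = 0.251). FPKM per gene do not separate spliced from unspliced Xbp1 mRNA, and protein cleavage or phosphorylation of the sensors was not measured.

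ER-associated degradation, which draws misfolded proteins back into the cytosol, was represented by 8 tested genes, of which 3 had IL-17 wholly below control, where 10.9% of all genes tested did. Syvn1, the ubiquitin ligase HRD1 at the centre of the pathway, stood at 13.9, 13.05 and 12.7 FPKM with IL-17 and at 14.6, 16.0 and 17.7 FPKM in controls. Its log2 fold change of -0.26 (SE 0.08, 95% interval -0.45 to -0.08) was the most negative of the ER genes, with a limma adjusted p of 0.149. Syvn1 shares 91 exon bases with Mrpl49 on the opposite strand, a gene averaging 32.3 FPKM.

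Herpud1, a membrane protein that organises the same ligase complex, stood at 42.8, 41.1 and 40.6 FPKM with IL-17 and at 45.8, 48.5 and 48.0 FPKM in controls, again with the groups apart (log2 fold change -0.19, SE 0.05, limma adjusted p = 0.114). Derl1, a channel-forming partner, averaged 45.01 ± 2.83 FPKM with IL-17 and 49.8 ± 1.19 FPKM in controls, likewise apart. With array weights 6 genes of the list were called lower, namely Calr, Dnajb11, Herpud1, Hyou1, Sdf2l1 and Syvn1, at adjusted p from 0.0168 to 0.0383. In that fit 497 genes in all were called higher and 518 lower, against 123 and 129 with all libraries weighted equally.

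The remaining degradation genes did not separate the groups. Sel1l, the scaffold of the Syvn1 ligase, averaged 12.03 ± 0.502 FPKM with IL-17 and 12.2 ± 0.888 FPKM in controls. The mannosidase-like genes Edem1 and Edem2, which mark glycoproteins for removal, averaged 18.3 ± 0.563 and 32.1 ± 1.96 FPKM with IL-17, against 18.9 ± 0.675 and 33.3 ± 1.84 FPKM in controls. Derl2, a relative of Derl1, averaged 7.09 ± 0.380 FPKM with IL-17 and 7.01 ± 0.518 FPKM in controls. It shares 231 exon bases with Mis12 on the opposite strand, which averaged 6.04 FPKM, so the level of Derl2 is uncertain if strand was not used in counting. Selenos, a selenoprotein that recruits the extracting ATPase, averaged 39.7 ± 3.20 FPKM with IL-17 and 44.8 ± 4.55 FPKM in controls. Derl3, a family member typical of secretory tissues, was near 0 at 0.438, 0.323 and 0.285 FPKM with IL-17, against 0.467, 0.321 and 0.367 FPKM in controls.

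Sec61b, a small subunit of the channel through which new chains enter the ER, had the largest standard error of the log2 fold change among the tested ER genes (0.14), although within the IL-17 libraries Dnajb9 varied more, at a coefficient of variation of 15.8% against 12.7% for Sec61b. Sec61b stood at 72.7, 87.8 and 93.6 FPKM in the IL-17 libraries, against 107.8, 74.98 and 89.3 FPKM in control libraries. The spread within each group exceeded the difference between them, and the 95% interval of the log2 fold change was -0.42 to 0.24.

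**Figure D2:**
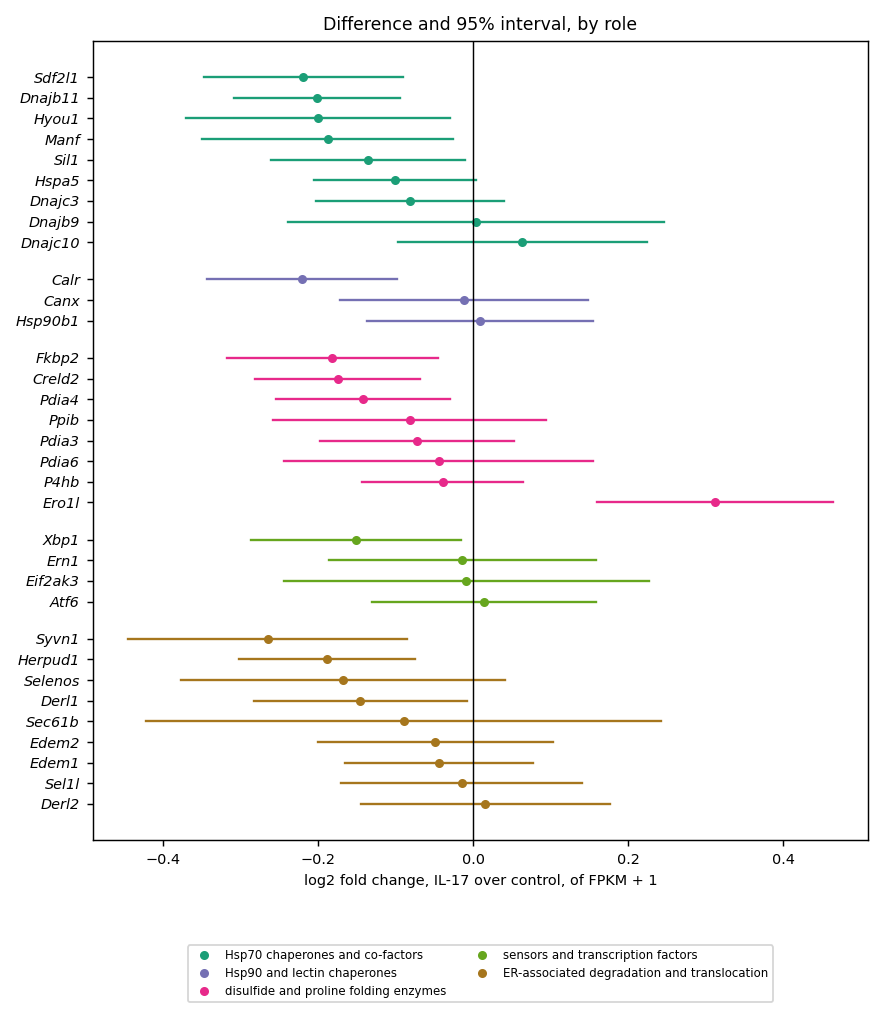
Log2 fold change of FPKM + 1, IL-17 over control, for the 33 tested genes with 95% limma intervals as lines, coloured by role. Of the intervals, 13 lie wholly below 0, 1 lies wholly above (Ero1l) and 19 cover 0, and none of the genes passed the adjustment over all genes.

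Part of the spread among the ER genes followed transcript length in single libraries. The 33 tested genes run from 723 bases for Sec61b to 7246 bases for Atf6, by their longest GENCODE transcript. Set against their 6-library mean on the log2 scale, the 17 shorter genes had median deviations of -0.09, -0.06 and -0.08 in IL-17 libraries 1, 2 and 3, and the 16 longer ones -0.00, -0.03 and -0.01. In control library 1 the shorter genes stood above the mean, at 0.11, while the longer ones stood below it, at -0.06. In control libraries 2 and 3 the shorter genes stood at 0.05 and 0.07 and the longer ones at 0.06 and 0.06. Across the 33 genes, which share each library's depth, Spearman's rho between length and deviation was 0.59, 0.40 and 0.15 in IL-17 libraries 1, 2 and 3, and -0.73, 0.19 and -0.19 in control libraries 1, 2 and 3.

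Over all genes tested, rho between length and deviation was 0.25, 0.03 and -0.12 in IL-17 libraries 1, 2 and 3. It was -0.38, 0.17 and 0.11 in control libraries 1, 2 and 3. For GC content, the percentage of G and C bases in the longest transcript, rho was 0.06, -0.16 and -0.32 in IL-17 libraries 1, 2 and 3. It was 0.12, 0.15 and 0.14 in control libraries 1, 2 and 3, so for GC content the groups did not overlap. By length, control library 1 stood apart from the rest, while IL-17 library 1 was not far from control library 2. Sec61b, the shortest gene, was lowest in IL-17 library 1 and highest in control library 1, and long genes such as Ern1, Sel1l and Eif2ak3 were lowest in control library 1. After a correction for transcript length and GC content, added after this was seen, 30 of the 33 log2 fold changes were negative, with a median of -0.09, and 0 genes were called. Without control library 1, 29 of 33 were negative, with a median of -0.11, and 0 were called.

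**Figure D3:**
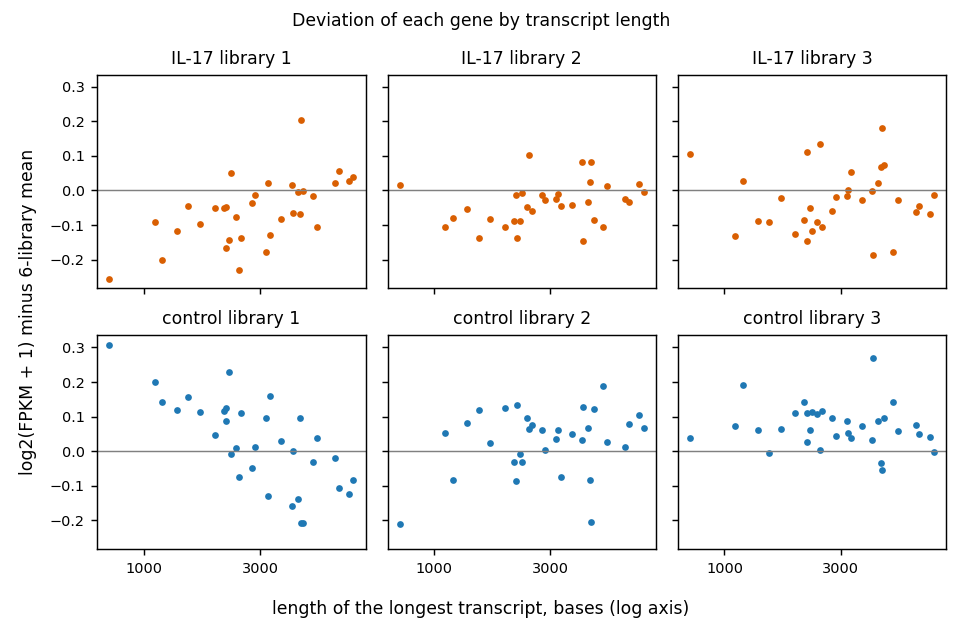
Deviation of each of the 33 tested genes from its own mean over the 6 libraries, on the log2(FPKM + 1) scale, against the length of its longest transcript on a log axis, 1 panel per library with IL-17 libraries above control libraries. IL-17 library 1 slopes upward, and control library 1 slopes downward, from Sec61b at the left to Atf6 at the right.

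Transcripts of lung and liver were uneven between these libraries. The summed level of 12 lung epithelial markers was 77.2, 66.2 and 172.1 FPKM in IL-17 libraries and 6.36, 5.45 and 58.8 FPKM in control libraries, with Sftpc at 29.8, 25.8 and 35.3 FPKM with IL-17, against 0.331, 0.170 and 15.2 FPKM in controls, and Scgb1a1 at 32.3, 25.6 and 117.6 FPKM with IL-17, against 0.155, 0.306 and 32.1 FPKM in controls. For 15 liver markers the sum was 142.3, 21.6 and 35.8 FPKM with IL-17 and 132.7, 116.8 and 77.1 FPKM in controls, with Alb at 51.4, 6.75 and 10.8 FPKM with IL-17, against 47.1, 40.4 and 27.5 FPKM in controls, and Trf at 11.99, 4.01 and 6.75 FPKM with IL-17, against 12.3, 11.6 and 9.02 FPKM in controls. The 3 IL-17 libraries and control library 3 were high in lung transcripts, and IL-17 libraries 2 and 3 were low in liver transcripts. No marker of either list was at 0 in all libraries. The lung markers Cldn18, Lamp3, Sftpd and Scgb3a2 were at 0 in control libraries 1 and 2, and the liver marker Mup3 in IL-17 libraries 2 and 3. Napsa, at 4.86 and 4.35 FPKM, made up most of the lung sums of control libraries 1 and 2. Leaving out IL-17 library 1 together with control library 3, 24 of the 33 ER genes had negative log2 fold changes. The median moved to -0.04, and 0 were called. IL-17 libraries 2 and 3 then faced control libraries 1 and 2, with lung sums of 66.2 and 172.1 against 6.36 and 5.45 FPKM. The liver sums were 21.6 and 35.8 against 132.7 and 116.8 FPKM. In this fit lung and liver content cannot be told apart from IL-17 exposure. In the main fit of all 6 libraries every IL-17 lung sum also lay above every control lung sum. Lung content and IL-17 exposure cannot be told apart there either. The liver sums of the 6 libraries overlapped. The part of these transcripts in the ER gene levels was not tested.

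Genes with IL-17 below control were found with and without the ER stress element, and over all genes tested 10.9% had IL-17 wholly below and 13.3% wholly above. Of the 8 tested genes with the full element, 5 had IL-17 wholly below and the median log2 fold change was -0.09, from -0.26 for Syvn1 to 0.01 for Hsp90b1. All of these but Dnajc3 and Syvn1 averaged at least 50 FPKM, a level at which 26.1% of tested genes had IL-17 wholly below. The classes were not matched for level. Of the 19 tested genes with a promoter but neither element, Dnajb9 among them, 6 had IL-17 wholly below and 1 wholly above. Their median was -0.05. Herpud1, with ERSE-II alone, had IL-17 wholly below. Of the 5 genes with no promoter matched, 3 had IL-17 wholly below, and their median was -0.15. Hsp90b1, with 2 copies, was level between the groups, while Dnajb11 and Sdf2l1, with none in the window, were among the genes farthest below control. These are descriptions of chosen genes, and the difference between the classes was not tested.

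The wider ER machinery was compared by 5 further lists. Of 105 other ER genes, 102 were tested, and 1 was called lower and 0 higher, where 0.996% and 0.95% of all genes were. At an unadjusted p under 0.05, 13 were lower and 2 higher, against 7.84% and 8.89% of all genes. In 25 of the 102 the IL-17 values lay wholly below control and in 7 wholly above, against the 10.9% and 13.3% of all genes, and the median log2 fold change was -0.05. The 1 called gene was Trib3, a pseudokinase induced by the PERK branch, at 13.5, 13.8 and 14.3 FPKM with IL-17, against 20.04, 18.5 and 18.8 FPKM in controls. The groups were far apart, by a log2 fold change of -0.44 (SE 0.05, limma adjusted p = 0.00777). Its direction held in all 19 alternatives, and its adjusted p ran from 0.00162 to 0.0826. It missed the threshold when IL-17 library 2 was left out (adjusted p = 0.0532), when IL-17 library 1 and control library 3 were left out (adjusted p = 0.0790) and with the replicate number as a block (adjusted p = 0.0826).

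By function, IL-17 lay wholly below control in 7 of 20 genes of N-glycosylation and glycoprotein quality control, in 6 of 19 further thiol enzymes and prolyl isomerases, in 3 of 20 further degradation factors, in 2 of 19 genes of the translocon and signal peptidase and in 7 of 24 signalling genes downstream of the sensors, where 10.9% of all genes tested did. IL-17 lay wholly above in 3 thiol enzymes and isomerases, 2 signalling genes, 1 degradation factor, 1 translocon gene and 0 glycosylation genes, against 13.3% of all genes. Ddost, a subunit of the enzyme that attaches N-glycans, averaged 202.4 ± 3.77 FPKM with IL-17 and 221.9 ± 6.501 FPKM in controls, and Mcfd2, a cargo receptor partner, 19.8 ± 0.850 FPKM with IL-17 and 22.1 ± 0.439 FPKM in controls. Srprb, a subunit of the signal recognition particle receptor, and Ssr2, a translocon-associated subunit, averaged 20.9 ± 0.317 and 275.3 ± 11.5 FPKM with IL-17, against 23.3 ± 0.658 and 307.4 ± 26.8 FPKM in controls.

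Of the thiol enzymes, Tmx3 averaged 2.36 ± 0.0685 FPKM with IL-17 and 1.99 ± 0.0860 FPKM in controls, and Selenom 102.1 ± 1.68 FPKM with IL-17 and 117.5 ± 12.7 FPKM in controls. The degradation genes Ubac2 and Ube2g2 averaged 24.8 ± 1.501 and 56.7 ± 1.69 FPKM with IL-17, against 28.5 ± 0.724 and 61.1 ± 1.33 FPKM in controls. None of these 8 genes was called, at limma adjusted p from 0.166 to 0.332. Chosen after their values were seen, Atf4 and Ddit3, the transcription factors that follow PERK, averaged 109.0 ± 5.65 and 10.8 ± 0.615 FPKM with IL-17, against 126.0 ± 5.19 and 11.4 ± 0.660 FPKM in controls, at limma adjusted p of 0.134 and 0.626. Atf3, a further factor induced in this branch, was on the other side, at 4.38, 4.801 and 4.51 FPKM with IL-17, against 3.54, 4.12 and 3.67 FPKM in controls. Its log2 fold change was 0.22 (SE 0.07, limma adjusted p = 0.172), with IL-17 wholly above and no call. Chac1 and Ppp1r15a of the same list, also chosen after their values were seen, had IL-17 wholly below. They averaged 12.8 ± 0.670 and 13.3 ± 0.233 FPKM with IL-17, against 16.4 ± 1.85 and 15.5 ± 1.17 FPKM in controls. Neither was called, at limma adjusted p of 0.122 and 0.172. Of the 24 tested genes of this list, 7 had IL-17 wholly below, Atf4 among them, and 2 wholly above, Atf3 and Nck1. For Ddit3 the groups overlapped. Cebpb had the largest positive log2 fold change of the list, 0.32 (limma adjusted p = 0.351), with the groups overlapping. Nck1 and Cebpb were also chosen after their values were seen. With array weights Atf4, Mcfd2 and Srprb were called lower, at adjusted p of 0.0330, 0.0485 and 0.0376, and Atf3 was called higher (adjusted p = 0.0435).

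**Figure D4:**
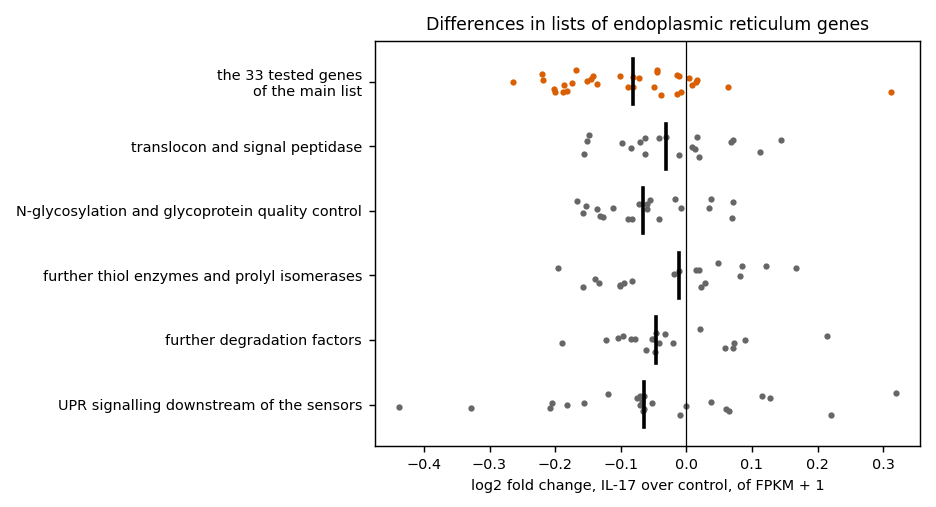
Log2 fold change of FPKM + 1, IL-17 over control, 1 point per gene, for the 33 tested ER genes (orange) and 5 lists of other ER genes (grey), with the median of each list as a black bar. All 6 medians lie slightly below 0, from -0.08 for the main list to -0.01 for the further thiol enzymes and prolyl isomerases.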

How the data were processed

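Poly(A) RNA of 6 HT22 libraries was sequenced in pairs on a NovaSeq, per the labels' protocols. The authors deposited FPKM, 1 column per library. Fastp, StringTie, edgeR and build mm10 are named per the submitters' processing notes, while no source used here gives the aligner, annotation or use of strand. Symbols and coordinates came from GENCODE vM21 (GRCm38, also called mm10), and 26525 of 26595 identifiers matched. Promoters came from RefSeq, GRCm38.p6. Relative depth was taken from the commonest ratio among genes averaging under 0.3 FPKM, shared by 32 to 40 genes per library pair. It says nothing of absolute depth.

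Genes with a mean of at least 0.5 FPKM over all libraries were tested (12953, with 13642 left out) as log2(FPKM + 1) with limma 3.58.1 (R 4.3.3), fitting group alone and letting the variance follow the mean. Benjamini-Hochberg adjustment ran over all tested genes, and those with an adjusted p under 0.05 were called. The fit was tested on simulated data. Groups came from the treatment label. Alternatives changed pseudocount, filter, scaling (trimmed mean of M values, TMM, computed on the FPKM, quantile, TPM), variance model or libraries, or added the replicate number. Same-numbered libraries correlated at -0.14, 0.08 and 0.21 in their deviations from group means, so the numbers were not taken as pairs.

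The gene lists and roles were chosen with earlier results of these data known. All 34 genes are named, with up to 4 called or else 2 uncalled genes of smallest p from each list of other ER genes, and the 2 most abundant markers of each list, Sftpc and Alb among them. Further genes of the other ER lists and further markers, such as Tmem119, Csf1r and Fcer1g, were named after their values were seen. A protein table was not used here, so retrieval signals at protein ends were not examined. Columns of values left out numbered 0.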

Additional observations from a re-analysis of the deposited data

How the results depend on the processing

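Over 19 alternatives, 18 of them planned, the median log2 fold change of the ER genes stayed negative, and in 16 of the 19 no ER gene was called. With quantile normalization the median was -0.050 and 1 gene was called lower, with a filter of 2 FPKM 1 was called higher, and with array weights 6 were called lower. Without IL-17 library 1 together with control library 3 the median was -0.042. Leaving out 1 library at a time gave medians from -0.11 to -0.07, with 0 calls each time. For all genes, the calls higher and lower were 123 and 129 in the main analysis, 63 and 72 with no filter, 497 and 518 with array weights and 247 and 203 after correction for transcript length and GC content. They were 68 higher and 92 lower without IL-17 library 1 together with control library 3, and 57 to 109 higher and 60 to 142 lower without 1 library. With the replicate block, which the numbers do not warrant, 41 were higher and 39 lower, with 0 ER genes. Other ER genes called lower numbered 1, and 0 with the replicate block, 0 without IL-17 library 1 together with control library 3, 6 with array weights (and 1 higher), and 0 to 2 lower and 0 to 1 higher without 1 library.

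Uncalled genes near 0 turned sign. Under TMM scaling Dnajb9 and Hsp90b1 were at -0.0066 and -0.0033. Quantile normalization put Atf6 at -0.015, Canx at 0.033 and Dnajb9 at -0.024. Array weights put Atf6 at -0.0065 and Hsp90b1 at -0.035. Without IL-17 library 1 together with control library 3, Atf6 was at -5.73e-05, Canx at 0.028, Eif2ak3 at 0.036, Pdia6 at 0.030 and Sec61b at 0.012. The length and GC correction put Atf6 at -0.020, Derl2 at -0.025, Dnajb9 at -0.019, Hsp90b1 at -0.020 and P4hb at 9.89e-05. Without 1 library, values ran from -0.024 to 0.051 for Atf6, -0.083 to 0.029 for Canx, -0.022 to 0.067 for Derl2, -0.063 to 0.120 for Dnajb9, -0.00036 to 0.095 for Dnajc10, -0.114 to 0.051 for Eif2ak3 and -0.079 to 0.034 for Ern1. They ran from -0.053 to 0.042 for Hsp90b1, -0.111 to 0.027 for Pdia6, -0.217 to 0.041 for Sec61b and -0.071 to 0.021 for Sel1l. The causes were not tested. The absolute depth is not known, so no counting interval can be given for low values.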
